A study of Mus musculus with 4 samples.

Results

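The transforming growth factor beta (TGF-beta) and activin signalling genes described here are 10 genes chosen by name, out of 27999 genes measured. They are the TGF-beta ligands Tgfb1, Tgfb2 and Tgfb3, the receptors Tgfbr1 and Tgfbr2 and the co-receptor Tgfbr3, the latent TGF-beta binding proteins Ltbp1 and Ltbp2, and the activin beta subunits Inhba and Inhbb. Each symbol matched 1 row in each of the 4 single-cell libraries, and the 10 genes were followed across cell classes, libraries and ages. Over all kept cells they gave between 2080 (Inhbb) and 23665 (Tgfbr2) UMIs (unique molecular identifiers, each standing for 1 captured transcript). Ltbp2 and Inhbb were thinnest in the 2-month version 2 library, with 101 and 102 UMIs.

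TGF-beta is secreted bound to its own propeptide and, through it, to a latent TGF-beta binding protein that tethers the complex to the matrix, so that release is a separate, regulated step. Freed TGF-beta binds the type II receptor Tgfbr2, which recruits and phosphorylates the type I receptor Tgfbr1, while Tgfbr3 (betaglycan) presents ligand, Tgfb2 in particular. Activins are dimers of the Inhba or Inhbb subunits, signal through a parallel set of receptors to the same Smad2 and Smad3 proteins, and are trapped by follistatin. In skin, the dermal papilla is the signalling cluster at the base of the hair follicle and a known source of activin and TGF-beta ligands, the dermal sheath is the contractile layer that wraps the follicle, and fibroblasts fill the surrounding dermis.

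The libraries came from C57BL/6J mice carrying a tamoxifen-inducible Cre under the alpha smooth muscle actin promoter, given tamoxifen on postnatal days 3 and 4, with 2 mice per sample. The reporter is given as α-SMACreERT2:RosaYFP in the chemistry version 2 pair (2 and 18 months of age). For the version 3 pair (2 and 12 months) it is given as α-SMACreERT2:RosaTDTomato, but the protocol text of these libraries also speaks of the YFP reporter. Which reporter the version 3 mice carried cannot be told from the sources used here. Cells had been sorted as positive for the reporter or Cd26 together with Itga9 or Cd200, 5000 cells per gate, so the sort, and not the skin, set the proportions of cell types. Because chemistry, mice and, as given, the reporter changed together, ages are compared within a chemistry only. The study's design text counts the 12-month mice as young, while here 12 and 18 months are both set against 2 months.

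After filtering, 1677 cells (2 months) and 2431 cells (18 months) remained in version 2, and 5388 cells (2 months) and 3964 cells (12 months) in version 3, with median depths of 6263, 6594, 11952 and 11815 UMIs per cell. Libraries shared at most 11 cell barcodes. The file of the 2-month version 2 library holds 1906 barcodes, the number that the design text gives for its second sample, while the sample labels give 2604 recovered cells for 2 months and 3776 for 18 months. The 18-month version 2 file holds 2727 barcodes, near the 2707 that the design text gives for its first sample. By the labels, the larger file and the larger labelled count go with the same age. Which of these counts is right cannot be told from the sources used here, nor whether the version 2 files were exchanged. An exchange would turn each version 2 ratio around and would also change every edgeR and DESeq2 fold and call, since these pool both chemistries. The version 3 ratios do not rest on those files, except through the shared clustering. Clusters were named from marker genes, with the ending -like. Each sheath-like cluster had 3 listed markers among its 100 leading genes, the fewest allowed. These were Tnmd, Col11a1 and Stmn2 (cluster 4), Stmn2, Npr3 and Acan (cluster 7), and Tnmd, Col11a1 and Acan (cluster 13). The listed contractile markers Acta2, Tagln, Myl9, Mylk and Tpm2 were not among them. The 17 markers of the dermal papilla were all detected in papilla-like cells of all 4 libraries, at a summed 15790, 14310, 13430 and 9651 counts per 1000000 (CPM, the UMIs of a gene over all UMIs of the same cells) in the order 2 and 18 months version 2, 2 and 12 months version 3. This order of libraries is kept throughout.

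RefSeq promoter windows (GRCm38.p6, 250 bases before the start) were found for 8 of the 10 genes, in 10 windows, as Tgfbr1 and Ltbp1 have 2 starts each. The 4 shown belong to the genes that the age and cluster comparisons turn on, the activin subunits and the binding proteins. They are printed 5′ to 3′ on the gene's strand, without the bases that lie inside the GENCODE gene, with capitals for matches to TATAAA (or TTTATA on the other strand) and to the Smad core CAGAC (or GTCTG).
Inhba, chr13:16011601-16011850, plus strand: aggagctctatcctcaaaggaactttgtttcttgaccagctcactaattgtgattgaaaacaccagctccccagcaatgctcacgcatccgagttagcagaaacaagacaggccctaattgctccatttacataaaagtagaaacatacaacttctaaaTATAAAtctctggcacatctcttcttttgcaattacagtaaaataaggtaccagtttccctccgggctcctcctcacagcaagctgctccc
Inhbb, chr1:119422249-119422498, minus strand: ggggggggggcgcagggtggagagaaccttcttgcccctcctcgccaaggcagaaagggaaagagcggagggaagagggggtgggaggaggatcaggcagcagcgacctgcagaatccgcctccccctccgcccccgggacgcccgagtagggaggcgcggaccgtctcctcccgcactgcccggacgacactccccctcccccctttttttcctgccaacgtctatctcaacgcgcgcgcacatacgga
Ltbp1, first start, chr17:75005279-75005528, plus strand: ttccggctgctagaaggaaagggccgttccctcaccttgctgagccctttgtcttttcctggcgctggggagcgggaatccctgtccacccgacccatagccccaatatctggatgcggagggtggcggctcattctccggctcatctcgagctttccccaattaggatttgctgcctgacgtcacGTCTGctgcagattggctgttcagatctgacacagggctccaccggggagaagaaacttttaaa
Ltbp2, chr12:84876533-84876741, minus strand: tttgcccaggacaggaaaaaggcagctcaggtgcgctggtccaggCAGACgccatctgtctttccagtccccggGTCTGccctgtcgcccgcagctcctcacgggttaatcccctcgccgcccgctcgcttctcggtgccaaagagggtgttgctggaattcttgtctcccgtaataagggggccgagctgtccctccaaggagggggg
The windows of the activin subunits differ in base composition: 43.2% G and C for Inhba, with 1 TATAAA match that begins 91 bases before the start, against 68.0% and no match to either motif for Inhbb. The Smad core occurred in 6 of the 10 windows of these genes, beside 42.2% of all 32851 RefSeq windows of the same length. The TATA letters occurred in 2 of the 10 windows (Tgfb2 and Inhba), beside 12.4% of all, and the AP-1 letters TGACTCA or TGAGTCA in 0 of the 10, beside 4.46% of all. A match describes letters only.

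**Figure D1:**
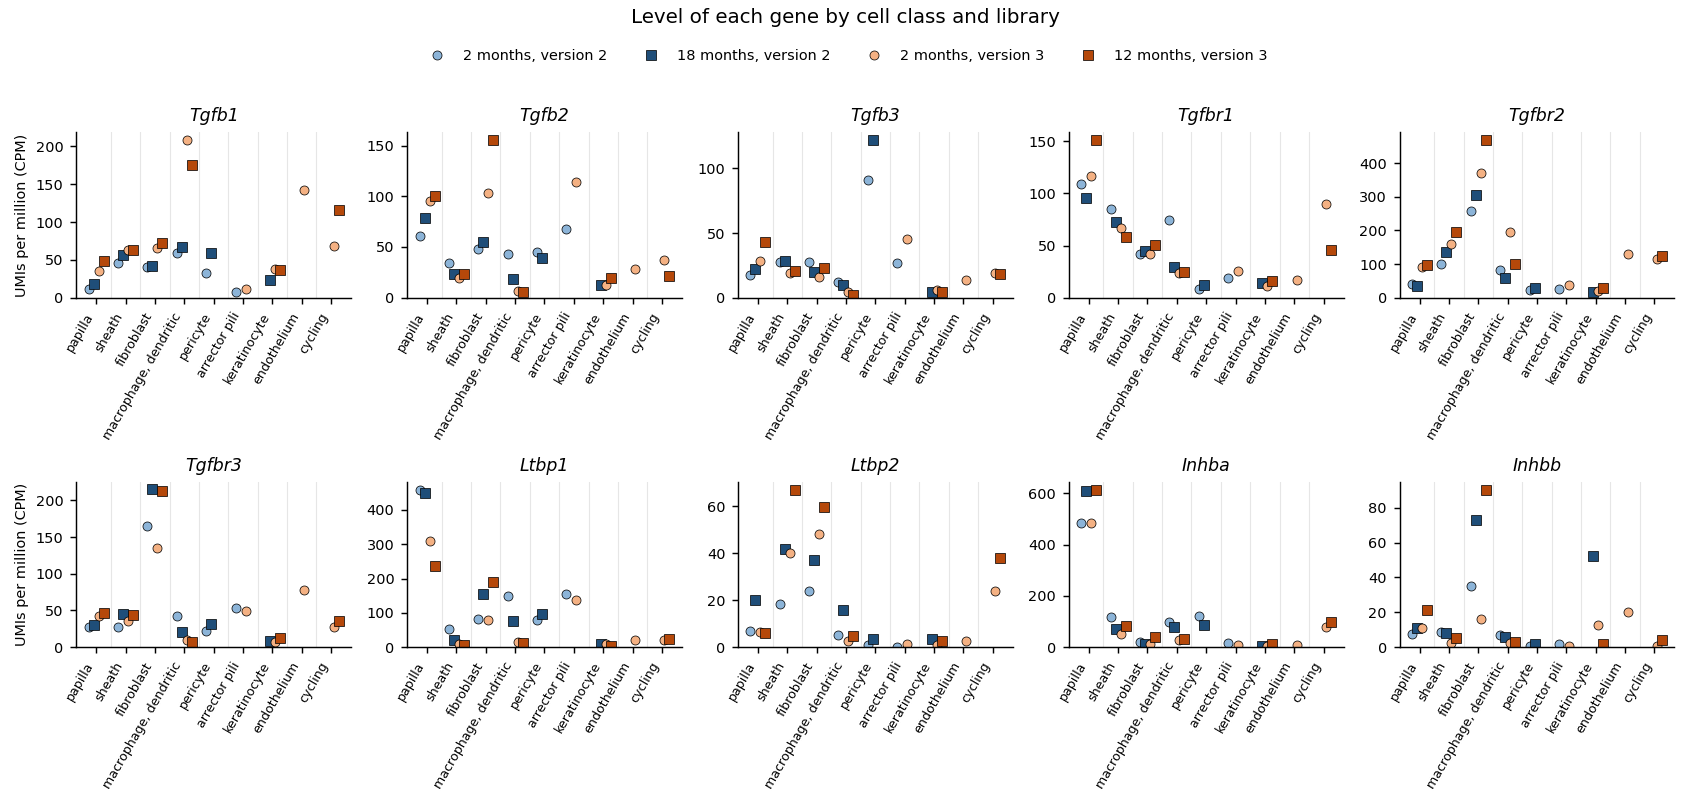
Level of each gene (CPM of the class, linear axes from 0) in each marker-defined class with at least 50 cells, 1 point per library; circles are 2-month libraries, squares older ones, and blue and orange are chemistry versions 2 and 3. Inhba and Ltbp1 stand highest in papilla-like cells in all 4 libraries, and Tgfbr2 and Tgfbr3 in fibroblast-like cells.

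Inhba was the gene of the 10 with the plainest cell type pattern. In papilla-like cells it stood at 483.5, 609, 483.2 and 614 CPM, above every other class in all 4 libraries. The next class was pericyte-like cells in version 2, at 121 and 85.0 CPM, and cycling cells in version 3, at 79.9 and 97.1 CPM. Sheath-like cells followed at 119, 70.2, 49.9 and 82.0 CPM, and macrophage and dendritic-like cells at 98.2, 80.0, 29.0 and 30.6 CPM, without a constant order between them. Papilla-like cells held 69.4%, 72.3%, 73.9% and 46.5% of all Inhba UMIs of their libraries, while holding 17.1%, 15.2%, 16.8% and 7.70% of all UMIs.

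When each cell was thinned to 2000 UMIs, leaving out 0, 0, 16 and 3 shallower cells, at least 1 Inhba UMI was seen in 55.3%, 61.3%, 59.7% and 62.2% of papilla-like cells (exact Clopper-Pearson 95% intervals 50.8 to 59.7, 56.8 to 65.7, 56.7 to 62.6 and 57.3 to 67.0, counting error only). Unthinned, the shares were 86.1%, 86.5%, 92.7% and 91.7%. In the cluster that stayed unnamed and is led by suprabasal epidermal genes, which should lack Inhba, the thinned shares were 0.465%, 0.0%, 1.37% and 1.04%, with median depths of 27821, 21638, 27377 and 23857 UMIs before thinning against 5015, 5773, 8240 and 7835 in papilla-like cells. The papilla-like share lay far above the share of that cluster in every library. Thinning removes more of the stray UMIs of deeper cells, so the share of that cluster can understate the background of shallower cells. The same limit applies where this cluster stands beside Ltbp2 and Inhbb below.

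Inhbb, the other beta subunit, was placed differently. Its level was highest in fibroblast-like cells, at 34.9, 73.2, 15.9 and 90.5 CPM, against 7.62, 10.98, 11.02 and 21.1 CPM in papilla-like and 8.43, 8.32, 2.25 and 5.10 CPM in sheath-like cells. Fibroblast-like cells were above papilla- and sheath-like cells in all 4 libraries, and below the endothelium-like cells (20.3 CPM) in the 1 library where these could be measured. Keratinocyte-like cells varied widely, from 52.6 CPM at 18 months to 12.95 and 1.74 CPM in version 3.

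Within the fibroblasts, the level of Inhbb differed by cluster. Fibroblast-like cells fell into 3 clusters, led by Serpina3n, Cyp2f2 and Aldh3a1 (cluster 8), by Tek, Adam12 and Col5a3 (cluster 11) and by Tmeff2, Sfrp4 and Clec3b (cluster 12). Inhbb stood at 77.2, 113, 91.8 and 131 CPM in cluster 8 and at 7.24, 15.7, 6.40 and 16.1 CPM in cluster 11. The ranges of clusters 8 and 11 did not overlap. Cluster 12 held 26, 31, 164 and 33 cells, at least 50 only in the 2-month version 3 library, and is not compared.

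Among the ligands, Tgfb1, the isoform made by many immune cells, was highest in macrophage and dendritic-like cells in all 4 libraries, at 59.4, 67.4, 209 and 175 CPM. In the 1 library with at least 50 endothelium-like cells it stood at 143 CPM there. Papilla-like cells had less, at 10.9, 18.5, 35.2 and 48.3 CPM, and sheath- and fibroblast-like cells lay between, at 45.9 to 63.7 and 40.1 to 72.4 CPM, without a constant order between them.

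Tgfb2, an isoform prominent in the follicle, was found mainly in papilla-like (61.3, 78.9, 95.5 and 100.1 CPM), fibroblast-like (48.3, 54.6, 103 and 156 CPM) and, in the 2-month libraries where they could be measured, arrector pili-like cells (67.5 and 114 CPM). Papilla- and fibroblast-like cells each stood above the other in 2 of the 4 libraries, so their order is not resolved. Tgfb3 was highest in pericyte-like cells, at 91.1 and 122 CPM in version 2, where papilla-like cells had 17.8 and 22.0 CPM. In version 3 too few pericyte-like cells (29 and 12) were recovered to give a level.

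The receptors were split between classes. Tgfbr2, the ligand-binding receptor, was highest in fibroblast-like cells of every library, at 259, 304, 371 and 469.5 CPM, and sheath-like cells had 100.2, 136, 159.8 and 194 CPM. Sheath-like cells came second except in the 2-month version 3 library, where macrophage and dendritic-like cells stood at 195 CPM. Tgfbr3 was likewise highest in fibroblast-like cells, at 165, 215, 136 and 213 CPM, against 26.8 to 45.9 CPM in papilla-like cells. Tgfbr1, the signalling kinase of the pair, was highest in papilla-like cells, at 109, 95.7, 117 and 151 CPM, and sheath-like cells had 85.2, 72.7, 66.9 and 58.4 CPM. Sheath-like cells came second in 3 of the 4 libraries, and cycling cells, at 89.4 CPM, in the 2-month version 3 library.

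Of the binding proteins, Ltbp1 was highest in papilla-like cells of every library, at 459.6, 451, 311 and 237 CPM, and arrector pili-like cells, the small muscle of the follicle, came next at 156 and 136 CPM in the 2-month libraries. Sheath-like cells had 52.0, 21.6, 7.74 and 6.79 CPM. Ltbp2, which binds matrix fibrils but not latent TGF-beta itself, was placed the other way round: 18.3, 41.9, 40.1 and 67.0 CPM in sheath-like and 23.8, 37.2, 48.2 and 59.6 CPM in fibroblast-like cells, against 6.89, 19.9, 6.27 and 6.16 CPM in papilla-like cells. Sheath- and fibroblast-like cells each led in 2 of the 4 libraries.

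**Figure D2:**
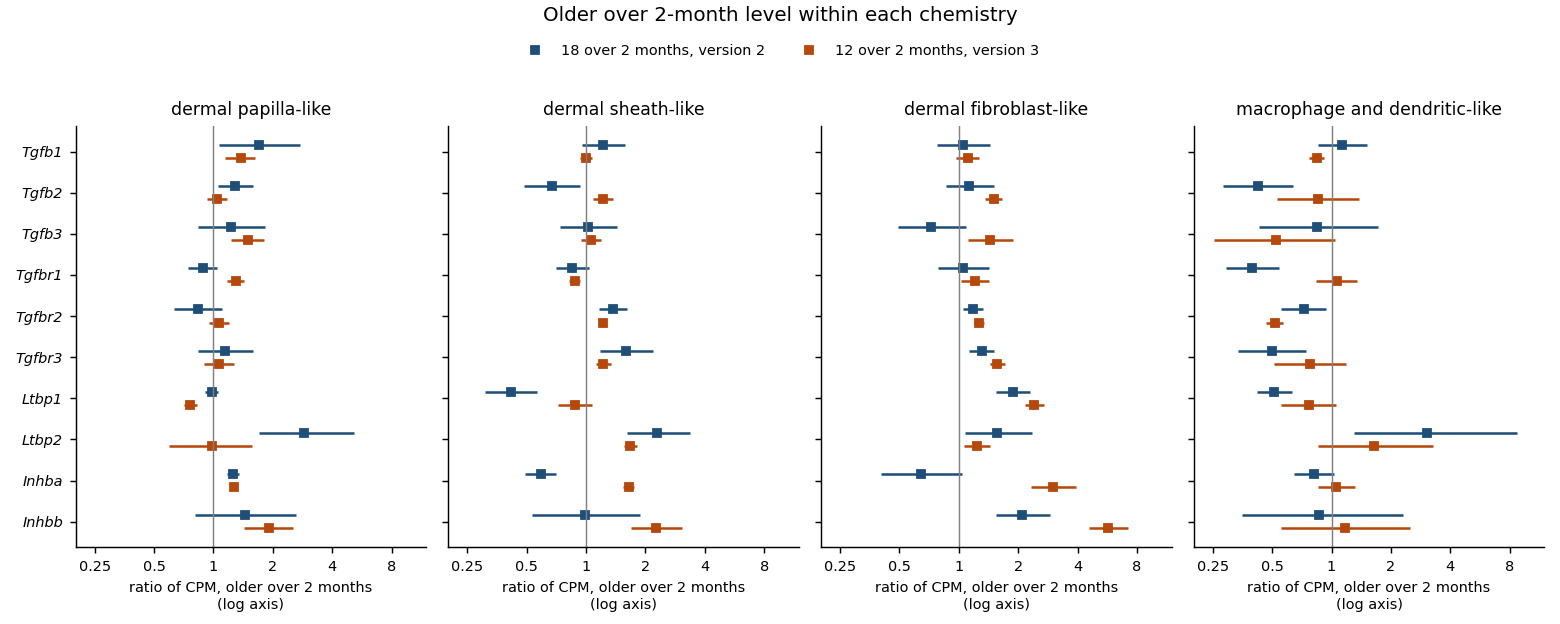
Ratio of each gene's level in the older over the 2-month library of the same chemistry, in 4 classes (points), with exact conditional Poisson intervals at 95% that cover counting error only (lines); the horizontal axis is logarithmic and the vertical line marks a ratio of 1. Ltbp2 in sheath-like cells and Ltbp1 and Inhbb in fibroblast-like cells lie above 1 in both chemistries, and Inhba in sheath-like cells lies on opposite sides.

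Age was tested on UMIs summed per library and class, with both older libraries against both 2-month libraries and chemistry as a covariate (edgeR quasi-likelihood test, Benjamini-Hochberg adjustment over all genes tested in the class, called under 0.05). The fit has 1 residual degree of freedom, so its error rests largely on the spread shared across genes, and nothing in the labels says that the libraries were more than single preparations. Papilla-, sheath-, fibroblast- and macrophage and dendritic-like cells, and all kept cells together, had at least 50 cells in each library. Keratinocyte-like cells had 43 in 1 library and were not tested.

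In sheath-like cells Ltbp2 rose with age. Its 18.3 CPM at 2 months and 41.9 CPM at 18 months give a ratio of 2.29 (exact conditional Poisson interval 1.60 to 3.35), and its 40.1 CPM at 2 months and 67.0 CPM at 12 months a ratio of 1.67 (1.55 to 1.80). In the edgeR test its log2 fold was 0.93 ± 0.17 (SE), with an adjusted p of 0.0298. It was the 1 gene of the 10 called in this class, where 0.967% of all 12721 genes tested were called (0.645% higher and 0.322% lower; 0.522% with DESeq2). The call was lost with DESeq2 (log2 fold 0.98, adjusted p = 0.0739), without the chemistry term (0.91, adjusted p = 1.00) and with the 12-month library counted as young (1.25, adjusted p = 0.594), each in the same direction.

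The difference had the same direction inside each of the 3 sheath clusters, though the 2-month version 2 values rest on few UMIs. That library held 53, 176 and 57 cells of clusters 4, 7 and 13. Its sheath-like cells gave 39 Ltbp2 UMIs in all. In cluster 4, led by Adamts18 and Clic5, Ltbp2 went from 23.8 to 44.7 CPM in version 2 and from 37.5 to 72.7 CPM in version 3. In cluster 7, led by Prss35, Npr3 and Smoc1, it went from 15.7 to 39.6 CPM and from 11.5 to 39.0 CPM. In cluster 13, led by Thbs4 and Matn4, it went from 19.9 to 40.3 CPM and from 54.0 to 73.7 CPM. Tested one cluster at a time, the edgeR log2 fold of Ltbp2 was 0.97 ± 0.19 (adjusted p = 0.00142, beside 2.38% of genes called) in cluster 4. In cluster 7 it was 1.66 ± 0.25 (adjusted p = 8.32e-09, beside 2.84%) and in cluster 13 it was 0.56 ± 0.18 (adjusted p = 0.0593, beside 2.63%). Like every fit of a single cluster here, these use the same 4 libraries with 1 residual degree of freedom. Their p-values rest largely on the spread shared across genes and do not measure the spread between mice.

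At 2000 UMIs per cell, an Ltbp2 UMI was seen in 2.098%, 7.80%, 6.15% and 9.64% of sheath-like cells (unthinned 9.09%, 21.8%, 25.3% and 37.7%), and in 0.0% of the suprabasal-type cluster in all 4 libraries (upper bounds of the exact intervals 1.70%, 5.78%, 2.50% and 3.77%). Outside the sheath, Ltbp2 had ratios of 1.57 (1.08 to 2.35) and 1.24 (1.07 to 1.44) in fibroblast-like cells. In papilla-like cells the chemistries gave 2.89 (1.69 to 5.13) and 0.982 (0.593 to 1.58). Neither class passed the edgeR test for Ltbp2 (adjusted p = 0.314 and 0.347). Macrophage and dendritic-like cells, with only 2.76 to 15.7 CPM of Ltbp2, had ratios of 3.04 and 1.645. Their log2 fold of 1.39 ± 0.44 was larger than that of sheath-like cells and did not pass either (edgeR adjusted p = 0.106). The 7 melanocyte markers, at most 2 of them at 0 in a library, summed in sheath-like cells to 2840 CPM in the 2-month version 2 library against 20.2, 132 and 29.2 CPM, and the 17 papilla markers to 1811 against 833, 809 and 740.1 CPM. With the cells that held at least 10 UMIs of melanocyte or myeloid markers left out, the log2 fold of Ltbp2 was 0.89 ± 0.17 (edgeR adjusted p = 0.0364). That setting left out 4, 23, 9 and 6 sheath-like cells and did not filter on papilla markers.

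Inhba in sheath-like cells lay on opposite sides in the chemistries, with a ratio of 0.588 (0.492 to 0.702) at 18 months and 1.65 (1.54 to 1.76) at 12 months. Its level differed between the sheath clusters: 190.5, 172, 125 and 229.8 CPM in cluster 7 against 16.7 to 48.8 CPM in cluster 4 and 24.6 to 50.5 CPM in cluster 13. Cluster 7 made up 61.5% and 34.0% of sheath-like cells at 2 and 18 months in version 2, and 19.0% and 22.6% at 2 and 12 months in version 3. In cluster 4 Inhba stood at 16.7, 35.1, 31.2 and 48.8 CPM, the first of these in 53 cells. It gave a called rise there of 0.73 ± 0.21 on the log2 scale (edgeR adjusted p = 0.0451, beside 2.38% of genes called). Tgfb2 showed the same opposite sides in sheath-like cells, at 0.674 (0.486 to 0.936) and 1.22 (1.09 to 1.37), and in cluster 7 it stood at 56.1, 54.4, 43.7 and 66.8 CPM.

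In fibroblast-like cells Ltbp1 rose with age in the class as a whole. It stood at 82.5 and 155 CPM at 2 and 18 months and at 78.9 and 191 CPM at 2 and 12 months, ratios of 1.88 (1.54 to 2.31) and 2.42 (2.17 to 2.69). The edgeR log2 fold was 1.16 ± 0.15 with an adjusted p of 0.0388, and it was the 1 gene of the 10 called, where 0.914% of the 11710 genes tested were called (0.547% higher). DESeq2 also called it (1.18 ± 0.26, adjusted p = 0.000923; 1.16% of genes), while edgeR did not without doublet removal (0.91, adjusted p = 0.140), at Leiden resolution 1 (1.15, adjusted p = 0.0678), with at least 1000 genes per cell (1.20, adjusted p = 0.0760), with unbalanced neighbours (1.14, adjusted p = 0.147), without the chemistry term (1.15, adjusted p = 1.00) or with 12 months counted as young (0.98, adjusted p = 0.90). All 10 genes had a log2 fold above 0 in this class, with a median of 0.48 beside -0.01 over all genes tested. Within clusters 8 and 11, tested alone, 8 and 6 of the 10 were above 0. Their medians there were 0.22 and 0.25, beside 0.018 and 0.00036 over all genes tested. In the class as a whole the chemistries differed: in version 3 all 10 ratios were above 1, and in version 2 it was 8 of 10. Inhba had a ratio of 0.640 (0.405 to 1.04) in version 2 and of 3.00 (2.33 to 3.91) in version 3, and Tgfb3 of 0.725 (0.494 to 1.08) and 1.44 (1.12 to 1.87). These ratios had a median log2 value over the 10 genes of 0.20 at 18 months and 0.56 at 12 months.

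Ltbp1 was called in neither of the fibroblast clusters that could be tested alone. Cluster 8, where Ltbp1 was high (165, 237, 413 and 279 CPM), made up 39.0% and 59.4% of the class at 2 and 18 months and 13.4% and 66.3% at 2 and 12 months. Within cluster 8 the ratio at 18 months was 1.44 (1.14 to 1.84), and at 12 months 0.674 (0.591 to 0.772), where 57 cells at 2 months stand against 466 at 12 months, and its log2 fold was 0.00 ± 0.34 (edgeR adjusted p = 1.00). In cluster 11, where Ltbp1 was low (31.9, 31.3, 9.09 and 21.0 CPM), its ratios were 0.982 (0.597 to 1.68) and 2.30 (1.44 to 3.78) and its log2 fold was 0.64 ± 0.28 (adjusted p = 0.290). The sort and the recovery of cells also set these shares, and their part in the class-wide difference was not tested. The 20 macrophage and dendritic markers, at most 1 of them at 0 in a library, summed to 865, 709.7, 3707 and 293 CPM in fibroblast-like cells. Without the cells that held at least 10 UMIs of these or of melanocyte markers, Ltbp1 had a log2 fold of 1.10 ± 0.15 (edgeR adjusted p = 0.00129). In that setting 516 of 11515 genes were called, against 107 of 11710 in the main one. It left out 3, 13, 57 and 12 fibroblast-like cells.

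**Figure D3:**
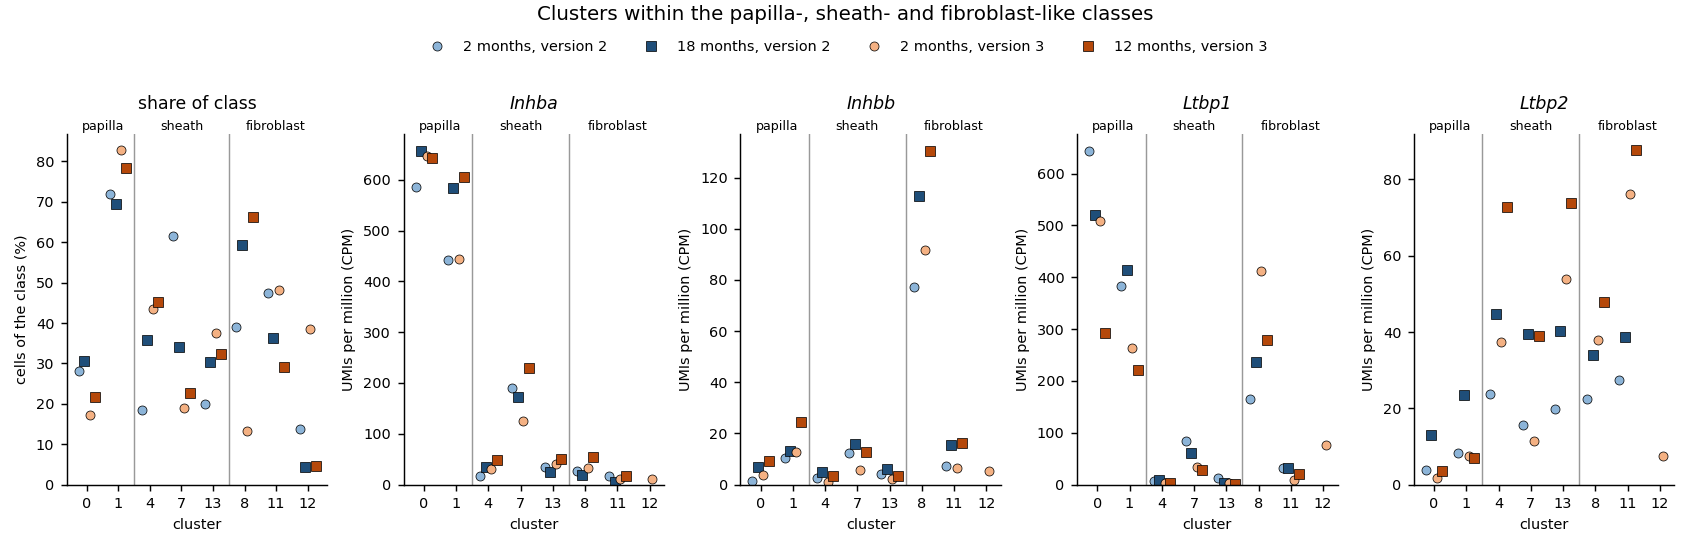
Left panel, share of each class held by its clusters (percent of the class's cells, by library); other panels, level of Inhba, Inhbb, Ltbp1 and Ltbp2 in each cluster (CPM, linear axes from 0), 1 point per library with at least 50 cells of the cluster; vertical lines separate papilla-, sheath- and fibroblast-like clusters. Cluster 8 of the fibroblasts is high in Inhbb and takes a larger share of the older libraries, and Ltbp2 is higher in the older library of each pair in clusters 4, 7 and 13.

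Inhbb in fibroblast-like cells had the largest ratios of the 10 genes in this class, 2.095 (1.55 to 2.90) at 18 months and 5.70 (4.56 to 7.19) at 12 months, with a log2 fold of 1.91 ± 0.33 that missed the threshold (edgeR adjusted p = 0.0749). With cells carrying melanocyte or myeloid markers left out, it was 1.75 ± 0.25 and passed (adjusted p = 0.00156), where 516 of 11515 genes were called. Within cluster 8 the ratios were smaller, 1.46 and 1.42, with a log2 fold of 0.57 ± 0.24 (edgeR adjusted p = 1.00; 0 of 9757 genes called there, 363 at an unadjusted p under 0.05). In cluster 11 the log2 fold was 1.26 ± 0.37 (adjusted p = 0.0275, beside 3.54% of genes called). At 2000 UMIs, 6.32%, 11.5%, 4.55% and 14.9% of fibroblast-like cells held an Inhbb UMI, and 0.0%, 0.0%, 2.05% and 1.04% of the suprabasal-type cluster. Unthinned, the fibroblast shares were 14.7%, 29.1%, 12.65% and 42.7%.

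The receptors followed in fibroblast-like cells with smaller differences. Tgfbr3 had ratios of 1.31 (1.13 to 1.51) and 1.57 (1.44 to 1.71) and a log2 fold of 0.58 ± 0.13 (edgeR adjusted p = 0.135). It was called in cluster 11 (0.57 ± 0.15, adjusted p = 0.00771), while within cluster 8 its version 3 ratio was 0.741 (0.641 to 0.859). Tgfbr2 had ratios of 1.18 (1.05 to 1.33) and 1.27 (1.20 to 1.34), with an adjusted p of 0.310, and 0.820 (0.734 to 0.919) within cluster 8 in version 3. In version 3, Tgfb2, Tgfbr2, Tgfbr3 and Ltbp1 were each above 1 in the class and below 1 in cluster 8, so these 4 genes depend on which fibroblast clusters are compared. Tgfb1, Tgfb3, Tgfbr1 and Inhba did not pass the test in this class (adjusted p = 0.752, 0.885, 0.636 and 0.591).

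In papilla-like cells none of the 10 genes was called, where 2.69% of the 11431 genes tested were (1.9% higher and 0.796% lower; 0.499% with DESeq2). Inhba had nearly the same ratio in both chemistries, 1.26 (1.17 to 1.35) at 18 months and 1.27 (1.21 to 1.33) at 12 months, with a log2 fold of 0.37 ± 0.17 (edgeR adjusted p = 0.363). In papilla cluster 1, led by Ndnf, Notum and Hsd11b2, it stood at 441, 584, 444 and 606 CPM, with a log2 fold of 0.46 ± 0.18 (adjusted p = 0.214; 2.94% of genes called there). In cluster 0, led by Sfrp2, Sostdc1 and Sox2, it stood at 585, 657, 646 and 643 CPM, with a log2 fold of 0.10 ± 0.18 (adjusted p = 0.905). Tgfb1 had ratios of 1.70 (1.07 to 2.76) and 1.37 (1.15 to 1.63), and Inhbb 1.44 (0.806 to 2.63) and 1.91 (1.43 to 2.54; edgeR adjusted p = 0.0937).

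Ltbp1 in papilla-like cells was level at 18 months (ratio 0.981, 0.907 to 1.06) and lower at 12 months (0.764, 0.710 to 0.821), and did not pass (log2 fold -0.18 ± 0.17, edgeR adjusted p = 0.771). It was higher in papilla cluster 0 than in cluster 1 in every library: 644, 519.5, 509 and 292 CPM against 383, 415, 263 and 222 CPM. In cluster 0 tested alone, Tgfb1 (1.08 ± 0.31, adjusted p = 0.0215) and Tgfb3 (0.89 ± 0.26, adjusted p = 0.0337) were called, beside 3.73% of genes there, and Ltbp1 had a log2 fold of -0.54 ± 0.18 (adjusted p = 0.0703). Tgfb3 in the whole class had 17.8, 22.0, 28.65 and 42.9 CPM, with ratios of 1.24 (0.838 to 1.83) and 1.496 (1.24 to 1.81).

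In macrophage and dendritic-like cells none of the 10 was called, where 3.54% of 11538 genes were (0.633% lower, and 0.863% in all with DESeq2), and 4 of the 10 had a log2 fold above 0. The log2 ratios had a median of -0.32 (18 months) and -0.305 (12 months) across all genes here, and of -0.39 and -0.24 across the 10. Tgfbr2 had 81.8, 59.0, 195 and 100.5 CPM, ratios of 0.721 (0.558 to 0.938) and 0.516 (0.467 to 0.571), and an adjusted p of 0.481. Cluster 2, led by Cytip, Napsa and Il1b, held 84.1% and 80.1% of this class in version 2 but 16.5% and 42.4% in version 3, and cluster 3, led by C1qc, Pf4 and Ms4a7, held 83.5% and 57.6% in version 3. In cluster 2 alone, 0.291% of genes were called, and none of the 9 genes of the 10 that could be tested there. Ltbp1 in these cells stood at 148, 75.8, 16.0 and 12.3 CPM and summed papilla markers at 3198, 1390, 708 and 389 CPM, in the same order.

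Over all kept cells, edgeR called 0 of 15462 genes (1633 at an unadjusted p under 0.05), and DESeq2 called 384 (2.19%). Inhbb went from 6.33 to 28.1 CPM and from 5.34 to 21.0 CPM, ratios of 4.44 (3.59 to 5.54) and 3.94 (3.50 to 4.45), with a log2 fold of 2.06 ± 0.15 (edgeR adjusted p = 0.190). Ltbp2 had ratios of 3.98 (3.21 to 4.99) and 1.92 (1.80 to 2.04). Fibroblast-like cells made up 11.3% and 28.9% of the version 2 libraries and 7.925% and 17.7% of the version 3 libraries, so these values hold both the makeup of the sort and the level per cell, and cannot be told apart.

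Beyond the 10 genes, 42 further genes of the pathway were listed by role. The list was made with earlier results of these data known, so its counts and medians are a description and no test of the list. In papilla-like cells 35 of the 42 genes were tested and 5 were called, all higher, where 2.69% of all genes were called. Those described here are Junb (a response gene), Tgif1 and Pmepa1 (inhibitors of Smad signalling) and Thbs1 (thrombospondin 1, an activator of latent TGF-beta). In fibroblast-like cells 37 were tested and 4 were called, all higher, beside 0.914% of all genes. Those described here are Tgfbi (a secreted matrix protein named for its induction by TGF-beta), Lrrc32 (GARP, which anchors latent TGF-beta at the cell surface) and Thbs1. In sheath-like cells 38 were tested and 1 was called, Junb, beside 0.967% of all genes. In macrophage and dendritic-like cells 36 were tested, 4 were called higher (Timp1, Skil and Tgif1 among them) and 1 lower (Fst, follistatin), beside 3.54% of all genes. Fst was also called lower in cluster 2 alone (log2 fold -1.81 ± 0.26, edgeR adjusted p = 0.0396). These counts depended on the processing. Without the chemistry term, or with 12 months counted as young, none of the listed genes was called in any of these classes, nor was any other gene. DESeq2 called 0 in papilla-like, 3 in fibroblast-like, 1 in sheath-like and 0 in macrophage and dendritic-like cells. With at least 1000 genes per cell, or at Leiden resolution 1, edgeR called 0 in fibroblast-like and 0 in macrophage and dendritic-like cells. In fibroblast-like cells it also called 0 without doublet removal, with unbalanced neighbours and in cluster 8 alone, and in sheath-like cells 0 with RLE size factors or with marker-carrying cells left out. None of the 3 Smads or the receptors listed was called in any of these classes. The median log2 fold of the tested genes was 0.21 in papilla-, 0.23 in fibroblast-, 0.18 in sheath- and 0.16 in macrophage and dendritic-like cells, beside -0.0049, -0.0069, -0.0055 and -0.011 over all genes.

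Thbs1 stood at 111, 203, 137.5 and 259 CPM in fibroblast-like cells (log2 fold 0.95 ± 0.12, edgeR adjusted p = 0.0388) and 8.34, 14.4, 28.7 and 53.6 CPM in papilla-like cells (0.92 ± 0.23, adjusted p = 0.0197). The papilla-like clusters differed for Thbs1: cluster 0 had 11.1, 13.99, 60.2 and 44.9 CPM (log2 fold -0.21 ± 0.30, adjusted p = 0.864) and cluster 1 had 7.19, 14.6, 21.2 and 56.2 CPM (1.37 ± 0.27, adjusted p = 6.59e-05). Sheath-like cells had 212.5, 266.5, 178 and 283.5 CPM, with an adjusted p of 0.155. Tgfbi in fibroblast-like cells rose from 168 to 321 CPM and from 179.8 to 399.8 CPM, a log2 fold of 1.10 ± 0.13 (adjusted p = 0.0337), and Lrrc32 from 16.3 to 35.4 and from 22.6 to 60.05 CPM, a log2 fold of 1.35 ± 0.18 (adjusted p = 0.0388). In each class as a whole these genes were higher in both older libraries.

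Junb, an AP-1 subunit and TGF-beta response gene that also belongs to the immediate early genes induced by handling, stood at 143, 1550.0, 2684 and 4802 CPM in papilla-like cells, a log2 fold of 2.13 ± 0.34 (edgeR adjusted p = 0.000228). The summed level of 25 other immediate early genes, Fos and Egr1 among them and at most 2 of them at 0 in a library, moved with it: 1201, 7239, 12540 and 22590 CPM in papilla-like, 4293, 6042, 4362 and 9994 CPM in sheath-like and 6140, 9350, 9596 and 12750 CPM in fibroblast-like cells. It was higher in the older library of each pair in these 3 classes, and 6449, 9676, 11220 and 9880 CPM in macrophage and dendritic-like cells. Its part in the differences of Junb, Thbs1, Tgif1 and Skil was not tested.

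**Figure D4:**
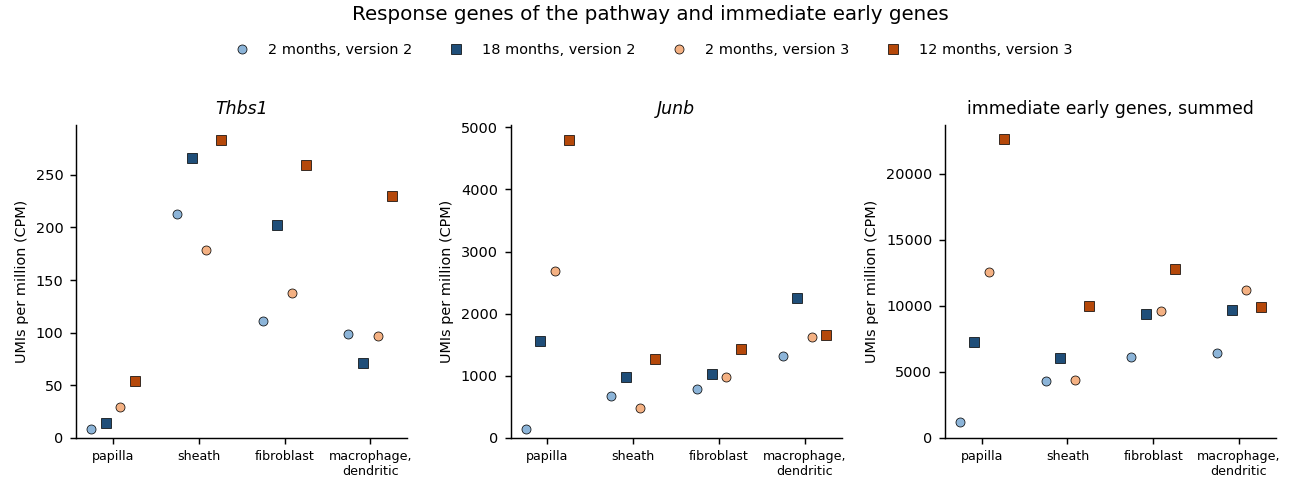
Levels of Thbs1 and Junb and the summed level of 25 immediate early genes (CPM, linear axes from 0) in 4 classes, 1 point per library; circles are 2-month and squares older libraries, blue version 2 and orange version 3. In papilla-like cells both genes and the immediate early sum are higher in the older library of each pair.

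Among the inhibitors, Pmepa1 in papilla-like cells stood at 52.2, 68.9, 127 and 224 CPM (log2 fold 0.68 ± 0.18, edgeR adjusted p = 0.0300) and Tgif1 at 18.9, 24.35, 17.0 and 43.9 CPM (1.014 ± 0.24, adjusted p = 0.0160). Their highest values were those of the 12-month library, with smaller ratios at 18 months (1.32 and 1.29). In macrophage and dendritic-like cells Skil had 55.1, 81.3, 45.35 and 104 CPM (1.22 ± 0.25, adjusted p = 0.00857), Tgif1 64.6, 143, 41.55 and 67.7 CPM and Timp1, a metalloproteinase inhibitor, 26.7, 34.9, 14.1 and 51.1 CPM. Fst there fell by 1.36 ± 0.27 on the log2 scale (adjusted p = 0.00795), at 118, 32.5, 13.1 and 4.87 CPM, in the order of the papilla markers given for these cells. Papilla-like cells themselves had 235.0, 216, 434 and 314 CPM of Fst, the trap for activin.

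Below the threshold, the pathway genes with the largest differences of 1 sign in both chemistries were, in papilla-like cells, Gdf11 (ratios 0.459 and 0.488), Postn, Skil, Ltbp3, Fstl3 and Cdkn2b. In sheath-like cells they were Tgfbi (3.36 and 1.59), Acvr2a, Ldlrad4, Lrrc32, Cdkn2b and Thbs1, and in fibroblast-like cells Fst (4.48 and 1.18), Bambi (0.324 and 0.809), Cdkn2b, Tgif1, Junb and Ltbp3. In macrophage and dendritic-like cells they were Ltbp3, Eng, Col1a1, Col3a1, Ctgf and Postn. Over all kept cells they included Tgfbi (3.06 and 2.23), Timp1, Thbs1, Tgif1 and Ctgf. None of these passed the edgeR test in the class named.

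Across 30 points of library and class with at least 50 cells, the genes whose log2(CPM + 1) followed each of the 10 most closely were picked from 8625 genes with a mean of at least 10 CPM, and are given as a description. Inhba was followed most closely by Ncald, Bcl2 and Spon1 (Pearson r from 0.897 to 0.881), and Inhbb by Serinc5, Cd34 and Deptor (0.777 to 0.753). Ltbp1 was followed by Igfbp5, Islr and Tppp3 (0.916 to 0.898), Ltbp2 by Dpep1, Ccdc74a and Gxylt2 (0.944 to 0.932), and Tgfbr1 by Nlgn2, Lamc3 and Gli1 (0.962 to 0.944). Tgfbr2 was nearest to Rrbp1, Steap3 and Cd47, Tgfbr3 to Ecm2, Aebp1 and Tnfaip6, Tgfb1 to Ankrd44, Fchsd2 and Runx1, Tgfb2 to Tcaf1, Mxra7 and L3mbtl3, and Tgfb3 to Plekhf1, Zc2hc1a and Apbb1. Points of 1 library share its chemistry and depth, and those of 1 class share its cell type.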

How the data were processed

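Single cells of 4 mouse libraries were profiled with 10x 3′ chemistry. Per the labels and file headers, the deposited matrices hold UMI counts per gene and barcode; per the submitters' processing notes, Cell Ranger 2.0.1, STAR and Seurat 2.1.0 were used with mm10 and GRCm38.p5, and the version 3 matrix headers name software 3.0.1. How each tool was set is not given in the sources used here. Total counts per library were 17831300, 21083193, 77032628 and 55396394 UMIs. Intervals cover counting error only.

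Cells with at least 500 genes, 1000 UMIs and at most 10% mitochondrial UMIs were kept, less the 3% of each library with the highest doublet scores. Cells were clustered with scanpy 1.11.5 (2000 variable genes, 30 components, 5 neighbours from each library, Leiden resolution 0.5) into 18 clusters, leaving the 10 genes and the pathway list out of the clustering. Balancing neighbours over libraries was chosen after the clusters' markers and counts per library had been seen. A cluster took a name where at least 3 listed markers were among its 100 leading genes and no other list outweighed them; 1 cluster stayed unnamed. Classes with at least 50 cells in a library were used. Gene levels are CPM of summed UMIs, and shares were thinned to 2000 UMIs per cell. Ratios of older over 2-month libraries carry exact conditional Poisson intervals at 95%. UMIs summed per library and class were tested with edgeR 4.0.16 (quasi-likelihood, TMM, age and chemistry as terms, Benjamini-Hochberg adjustment, threshold 0.05) in R 4.3.3, with DESeq2 1.42.0 as an alternative, and the procedure was tested on simulated data. The standard error is the log2 fold divided by the root of the F statistic. Alternatives changed the normalization, filters, covariate, age grouping, clustering and cells, and left out libraries.

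The 10 genes and all lists were chosen with earlier results of these data known. Named genes are the 10, every called gene of the 42-gene pathway list, and in each class the 6 others, with at least 20 UMIs, that had the largest ratio of 1 sign in both chemistries. Promoter windows are RefSeq's (GRCm38.p6). Some items are not reported here.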

Additional observations from a re-analysis of the deposited data

Results flagged for a closer look

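Of 60 pairs of gene and class compared in both chemistries, 6 had ratios of older over 2-month level on opposite sides of 1 with intervals that exclude 1. The difference between chemistries was not tested in any of them, and 18 months was measured in version 2 only and 12 months in version 3 only. Inhba in sheath-like cells had 0.588 at 18 months and 1.65 at 12 months, and Tgfb2 in the same cells 0.674 and 1.22. Inhba in the unnamed suprabasal-type cluster, where its level was at most 6.30 CPM, had 2.87 and 0.214. Over all kept cells, whose makeup differs between libraries, Tgfbr1 had 1.13 and 0.914, Ltbp1 1.15 and 0.768, and Inhba 1.07 and 0.924.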

How the results depend on the processing

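No paired analysis was possible because each chemistry holds 1 library per age, replicate numbers follow accession order, and chemistry is already a term of the fit. Without a library the test could not be fitted, and the value left is the ratio of the other chemistry. Keratinocyte-like cells were not tested.

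The number of the 10 genes called moved as follows, with the number of all genes called in parentheses. Over all kept cells it was 0 (0) and became 3 with DESeq2 (384). In papilla-like cells it was 0 (308) and became 1 with RLE size factors (450), 1 with at least 1000 genes per cell (457), 3 at Leiden resolution 1 (499) and 2 in cluster 0 alone (320). In sheath-like cells it was 1 (123) and became 0 with DESeq2 (77), without the chemistry term (0), with 12 months counted as young (0) and in cluster 13 alone (283). It became 2 there without doublet removal (548), Ltbp2 higher and Ltbp1 lower, and 2, both higher, with unbalanced neighbours (269) and in cluster 4 alone (270). In fibroblast-like cells it was 1 (107) and became 2 with RLE (248) or DESeq2 (159), 4 without the filter on low counts (908), 3 at a mitochondrial limit of 20% (310), 3 with marker-carrying cells left out (516) and 2 in cluster 11 alone (358). It became 0 there without the chemistry term (0), with 12 months counted as young (0), with at least 1000 genes per cell (29), without doublet removal (50), at Leiden resolution 1 (24), with unbalanced neighbours (4) and in cluster 8 alone (0).

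Of 200 values with a library left out, 86 lay within 1 standard error of the fold from both chemistries and 114 did not. No called fold changed sign. Leaving out either library of a chemistry leaves the same ratio, so each ratio is counted more than once among these values. Of 583 other values, 519 kept their direction and side of the threshold, 12 lost and 24 gained a call, and 28 changed sign, none of these called. With 12 months counted as young the log2 folds were 0.078 for Ltbp1 over all cells, -0.20 for papilla Tgfbr1, -0.52 and -0.72 for sheath Tgfb2 and Inhba, -0.39 and -0.57 for fibroblast Tgfb3 and Inhba, and 0.11 for macrophage Tgfb3. Papilla Tgfbr2 was 0.042 without the chemistry term, 0.056 without doublet removal, 0.048 at Leiden resolution 1 and 0.17 in cluster 0. Sheath Tgfb2 was -0.048 with DESeq2, -0.12 without the chemistry term and -0.020 with marker-carrying cells left out. In cluster 13, Tgfb1, Tgfb2 and Tgfb3 were -0.098, -0.099 and -0.021. Sheath Inhba was -0.085 without the chemistry term, and sheath Ltbp1 0.28 with unbalanced neighbours. In cluster 11, Tgfb1, Tgfb3, Tgfbr1 and Inhba were -0.080, -0.23, -0.25 and -0.046, and in cluster 8 Tgfb2 and Tgfbr3 were -0.44 and -0.041. Fibroblast Inhba was -0.038 with unbalanced neighbours, Inhba in cluster 2 was -0.31, and Inhba over all cells 0.0093 at a mitochondrial limit of 20%. The cause was not tested.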
